A study of Mus musculus with 4 samples.

Results

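The cytosolic ribosomal protein genes were followed in single cells of the mouse brain after transient middle cerebral artery occlusion (tMCAO), a model in which a brain artery is blocked and then reopened. A gene was a member when its symbol began with Rpl or Rps and a digit, or was Rpsa, Rplp0, Rplp1 or Rplp2. The S6 kinase genes (Rps6k, 10 rows) and 9 rows whose symbols carry -ps or -rs were left out. The rule took 86 of 31053 genes, of which 52 belong to the large (60S) and 34 to the small (40S) subunit by name. Of these, 77 are standard ribosomal protein names (46 large, 31 small), and 9 are paralogs or other genes caught by their names. The members lie on 19 chromosomes, 4 of them on chromosome X, and all 86 were found in the GENCODE vM21 annotation.

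The study sequenced cells of the ipsilateral hemisphere of male C57/BL6 mice aged 8 weeks by the 10x Genomics droplet method. A tMCAO library stood for each of days 1, 3 and 7, and the design text places the sham library on day 7. Cells were freed with papain and cleared of myelin debris on Percoll, and the labels name no genetic change in any group. Each group was 1 library, and the number of mice in it is not given in the labels, so no test between groups was possible. The 95% intervals below cover counting error only, and a difference between days cannot be told apart from a difference between libraries.

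A ribosome is built from ribosomal RNA and one copy of most ribosomal proteins, the large subunit forming peptide bonds and the small subunit reading the mRNA. Most ribosomal protein mRNAs begin with a terminal oligopyrimidine tract, a C followed by a run of C and T, through which growth signals of the mTOR pathway control their translation as a group. Resting lymphocytes are known for a high proportion of these transcripts among their mRNA, and mature neutrophils and red cells for a low one.

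From RefSeq sequences of mouse build GRCm38, 66 of the 86 members were matched by symbol to a start site. A C at the annotated start followed by at least 4 pyrimidines, read on the strand of the gene, was found in 13 of 66 members (19.7%), against 2.49% of 27025 genes in the table. It was found in 0 of 69 matched mitochondrial ribosomal protein genes and in 1 of 8 matched translation factor genes. Within 5 bases either side of the annotated start, the same letters occurred in 43.9% of members and 18.5% of all genes. There they occurred in 15 of the 69 mitochondrial ribosomal protein genes (21.7%) and in 3 of the 8 translation factor genes. The 8 members listed recur in the results, each with 15 bases before its start and 15 from it on, with the C and the pyrimidines that follow it in capitals. Rpl38 ranked highest on day 1 in oligodendrocyte-like and mural cells, Rpl35 was among the highest on day 3 in microglia-like cells, Rps27 and its near copy Rps27rt are shown side by side, Rps6 is the S6 kinase substrate, Rplp2 is a stalk protein, and Rpl41 and Rpsa have no C at the annotated start. Most of the 8 carry the letters found in 13 of 66 members, so the list is not typical of members. Rps26, Rpl39 and Rps12, which also recur in the results, have no C at the annotated start. A match describes these letters and shows no regulation.
Rpl38 (chr11:114668565-114668594, + strand): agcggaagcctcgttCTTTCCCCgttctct
Rpl35 (chr2:39005117-39005146, - strand): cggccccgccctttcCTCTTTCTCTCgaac
Rps27 (chr3:90213634-90213663, - strand): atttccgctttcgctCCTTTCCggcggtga
Rps27rt (chr9:114982725-114982754, - strand): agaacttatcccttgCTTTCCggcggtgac
Rps6 (chr4:86857353-86857382, - strand): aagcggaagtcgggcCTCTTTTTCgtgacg
Rplp2 (chr7:141447636-141447665, + strand): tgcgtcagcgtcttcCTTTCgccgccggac
Rpl41 (chr10:128549154-128549183, - strand): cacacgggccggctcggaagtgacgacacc
Rpsa (chr9:120127751-120127780, + strand): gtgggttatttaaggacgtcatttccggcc

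Of 59429 deposited cells, 44360 had 200 to 3000 genes and a mitochondrial share of 10% or less by UMIs (unique molecular identifiers, each counting 1 mRNA molecule), with library medians of 2507.5 to 3731.5 UMIs per cell. A cell was given to a class when at least 3 of 6 marker genes were detected and no other class came within 1 marker, and classes are called by their markers ("endothelial-like"). In this way 40183 cells were gated, of which 3049 sat at the least marker count or lead, and 4177 were not, of which 1994 lay just outside. Cldn5 was detected in 97.3 to 98.8% of endothelial-like cells, C1qa in 99.1 to 100% of microglia-like cells and Mag in 99.7 to 100% of oligodendrocyte-like cells. Tmem119 was found in 84.4% of sham microglia-like cells and in 68.9 to 71.2% after tMCAO. Free RNA was present in the droplets, since Ttr, a choroid plexus transcript, was detected in 98.2% of the other gated cells of the sham library. Pairs of libraries shared 33 to 88 cell barcodes.

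Members made up 8.62% of all UMIs of the kept cells. In the sham library they were 7.79% of UMIs, on day 1 10.2%, on day 3 8.72% and on day 7 7.51%. All 86 had at least 1 UMI, but 3 had fewer than 1000 over all cells: Rpl39l with 205, Rpl3l with 49 and Rpl10l with 5. These 3 are paralogs known from testis and striated muscle. Because a UMI counts a molecule once from its 3′ end, levels in CPM (UMIs of a gene per 1000000 UMIs of the class) can be compared between genes without a length correction.

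The 10 most abundant members, Rps29, Rpl38, Rpl13, Rpl41, Rps24, Rpl37a, Rpl27a, Rpl37, Rpl9 and Rps20, held 23.8% of member UMIs. Over all kept cells their levels ran from 1687 CPM for Rps20 to 2780.2 CPM for Rps29, a zinc-binding protein of the 40S head. The lowest standard member was Rpl13a with 65.8 CPM, followed by Rpl23a with 175 CPM and Rpl5 with 224 CPM. Rpl13a was picked out after its value was seen, and another annotated gene, Gm45713, overlaps it on the same strand. Of the members, 60 have at least 1 pseudogene named after them in the annotation, among them Rpl31 with 24, Rps12 with 23 and Rpl23a with 14, so the count of such a gene can depend on how shared reads were assigned. The 9 rows left out for -ps or -rs symbols held 0.00279% of UMIs, and the highest of them, Rpl27-ps3, had 17.0 CPM.

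The share of UMIs given to members set the classes apart. In the sham library it was 29.5% (29.2 to 29.7) in 23 T or NK-like cells, 22.4% (22.0 to 22.8) in 13 B-like cells and 17.8% (17.5 to 18.1) in 5 monocyte-like cells. Neuron-like (9.80%), border macrophage-like (9.10%), microglia-like (9.04%), fibroblast-like (8.82%), vascular smooth muscle-like (8.82%) and endothelial-like cells (8.46%) lay close together. Oligodendrocyte-like (5.44%), pericyte-like (4.34%), astrocyte-like (2.62%) and neutrophil-like cells (2.26%) were lower. Erythrocyte-like cells were lowest at 0.733% (0.705 to 0.762), with 89.9% of their UMIs from hemoglobin genes, at a median of 7892 UMIs per cell. T or NK-like cells were highest in each of the 4 libraries (29.5, 40.4, 33.3 and 31.1%) and erythrocyte-like cells lowest (0.733, 1.68, 1.53 and 0.722%).

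**Figure D1:**
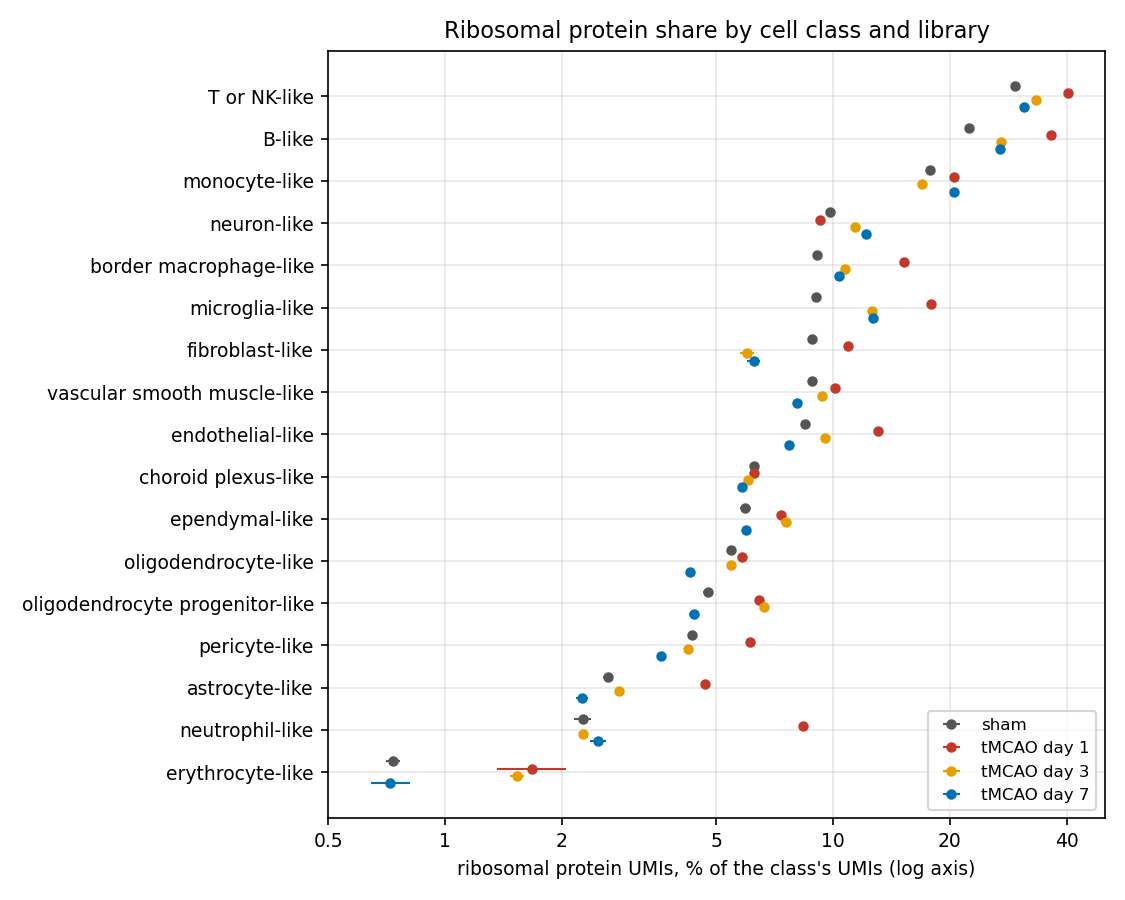
Ribosomal protein UMIs as a percentage of all UMIs of a class (log axis) in each of 17 marker-gated classes, 1 point per library with its exact binomial 95% interval. Day 1 lay to the right of sham in 15 of 17 classes, and T or NK-like cells were highest in each library. Only 5 of the 17 classes had at least 50 cells in every library.

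On day 1 the share was above sham in 15 of 17 classes, on day 3 in 12 and on day 7 in 8. Only 5 of the 17 classes had at least 50 cells in every library, and these tallies count small classes like large ones. Erythrocyte-like cells, for example, were 2 on day 1, and monocyte-like cells 5 in the sham library. The ratio's interval, for counting error only, lay above 1 in 15, 11 and 7 classes on days 1, 3 and 7 and below 1 in 1, 4 and 8. Of the classes below 1, neuron-like cells on day 1, pericyte-like and choroid plexus-like cells on day 3 and astrocyte-like cells on day 7 lay above sham by their mean share per cell. The class whose interval lay below 1 on day 1 was neuron-like cells, with a ratio of 0.945 (0.933 to 0.957) from 76 and 411 cells, and its mean share per cell was 9.39% in the sham library and 10.03% on day 1. Choroid plexus-like cells gave 0.996 (0.981 to 1.01). Neutrophil-like cells had the steepest ratio, 3.71 (3.49 to 3.95), from 2.26% in 15 cells to 8.38% in 34 cells, and had 2.27% on day 3. S100a8 and S100a9 were detected in 93.3 to 100% of these cells in both libraries, but the other 4 markers were less often found on day 1: Csf3r in 82.4%, Trem1 in 61.8%, Cxcr2 in 47.1% and Retnlg in 23.5%, against 86.7 to 100% in the sham library. Their median depth was 3376 UMIs in the sham library and 1284 on day 1, and 13 of the 34 day 1 cells sat at the edge of the gate. The part of these in the result was not tested.

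Endothelial-like cells, the most numerous class with 4736 to 8917 cells a library, gave members 8.46% of their UMIs in the sham library, 13.02% on day 1, 9.52% on day 3 and 7.70% on day 7. The ratios over sham were 1.54 (1.54 to 1.54), 1.13 (1.12 to 1.13) and 0.911 (0.909 to 0.913). The expression clusters that made up the class differed between the day 1 and sham libraries. Of these clusters, 2 held 1560 and 1927 day 1 cells but 34 and 96 sham cells. Another 2 held 1336 and 1139 sham cells but 278 and 643 day 1 cells, and 2034 and 2720 day 7 cells. Others were shared, such as that with 640, 717, 673 and 1587 cells in the order sham, day 1, day 3, day 7. Clusters were made without correction between libraries. On day 1, 37 of 84 members with at least 50 UMIs in both libraries together were at least 1.5-fold higher (5 CPM added to each value), and 0 were as much lower. Of all genes so measured, 4.95% were higher and 5.04% lower. The members' median log2 ratio was 0.56 and that of all genes -0.04. On day 3, 6 of 84 members were higher and 0 lower, against 3.9% and 3.42% of all genes. On day 7, 4 were higher and 1 lower, against 6.07% and 1.84%, and the median log2 ratio of members was -0.15 beside 0.08 for all genes. With libraries scaled to the median gene, 2 were higher and 5 lower on day 7, against 3.54% and 3.19% of all genes.

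The leading member on day 1 in endothelial-like cells was Rpl39, a small protein lining the peptide exit tunnel, with 955 CPM in the sham library, 2383 on day 1, 1502 on day 3 and 983 on day 7. Its day 1 ratio was 2.50 (2.45 to 2.54), and by day 7 it was 1.03 (1.01 to 1.05). Rpl17, which also lines the exit tunnel, had 312, 719, 531 and 517 CPM in the same order, so it was still 1.66-fold (1.605 to 1.72) above sham on day 7. Rps26, which sits by the mRNA exit channel, had 431, 957, 687 and 560.2 CPM. All 3 were highest on day 1 and, except for Rpl39, well above sham on day 7. Rpl38, an abundant protein of the 60S surface, went from 2546 CPM to 5361 on day 1, a ratio of 2.11 (2.08 to 2.13), and then to 2387 and 2142, below sham. Rps29, the most abundant member, moved less, with 3093, 4144, 3113 and 2596 CPM.

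At the other end of day 1 in endothelial-like cells stood 3 genes that are not standard ribosomal proteins. Rpl7l1, a nucleolar relative of Rpl7, had 71.97 CPM in the sham library and 66.0 on day 1, a ratio of 0.916 (0.843 to 0.996). Rps19bp1, a nucleolar protein that binds Rps19 and the deacetylase SIRT1, had 45.9 and 42.1 CPM (ratio 0.919, 0.828 to 1.02). Rpl39l had 2.37 and 1.96 CPM from 38 and 33 UMIs, and its interval (0.503 to 1.35) spans 1. On day 3 the lowest were Rplp1 (ratio 0.865), Rpl27a (0.901) and Rps19bp1 (0.9003), and the highest Rpl17 (1.71), Rpl36al (1.70) and Rpl27 (1.605). On day 7 Rpl23a, Rpl17 and Rps12 led with ratios of 1.91, 1.66 and 1.54, while Rplp0, Rpsa and Rpl7a were lowest at 0.660, 0.667 and 0.668.

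Microglia-like cells (109, 437, 333 and 239 in the order sham, day 1, day 3, day 7) had the steepest rise of the 5 classes with at least 50 cells in every library. Members were 9.04% of their UMIs in the sham library, 17.9% on day 1, 12.6% on day 3 and 12.7% on day 7. The ratios were 1.98 (1.96 to 2.01), 1.39 (1.38 to 1.41) and 1.41 (1.39 to 1.42), so the share was higher than sham in each of the 3 tMCAO libraries. On day 1, 68 of 83 members were at least 1.5-fold higher and 0 lower, where 23% of all genes were higher and 24% lower. On day 3, 29 of 82 were higher and 0 lower, against 14.7% and 10.2% of all genes. On day 7, 27 of 82 were higher and 0 lower, against 12.5% and 9% of all genes. The median log2 ratios of members were 0.99, 0.52 and 0.44, and those of all genes -0.02, 0.04 and 0.04. The sham class was small, so single members rest on few molecules there, and 18 of its 109 cells and 71, 60 and 57 cells of the other libraries sat at the edge of the gate.

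Rpl41, the smallest ribosomal protein, which bridges the subunits, had 1189 CPM in sham microglia-like cells, 4962 on day 1, 2816 on day 3 and 2039.8 on day 7. Its day 1 ratio was 4.17 (3.80 to 4.59). Rps26 had 456, 1843, 1194 and 1098 CPM, with ratios of 4.04 (3.47 to 4.72), 2.62 (2.24 to 3.08) and 2.41 (2.05 to 2.84). Rps27rt had the highest log2 ratio on day 1, 2.11, but rests on 2 UMIs in the sham library, and its ratio of 7.57 has an interval of 2.03 to 63.6. Rpl41 and Rps26 were above sham in each of the 3 tMCAO libraries, while Rps27rt was under the limit of 50 UMIs on days 3 and 7. Rps27, the zinc finger protein of which Rps27rt is a near copy, was the least changed member of day 1, with 1784, 2114, 2308 and 2419 CPM and a day 1 ratio of 1.18 (1.09 to 1.29). Rps9, near the mRNA entry, followed with 1697 and 2226 CPM (1.31, 1.21 to 1.43). Rps19bp1, at 38.5 and 52.4 CPM, had an interval that spans 1 (0.790 to 2.52).

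On day 3 the lowest members in microglia-like cells were Rplp1, an acidic protein of the stalk that recruits elongation factors, at 2007 CPM in the sham library and 1459 on day 3 (0.727, 0.668 to 0.792), Rps21 (0.883) and Rps19bp1 (0.903, 0.490 to 1.75). Rps26, Rpl41 and Rpl35 were highest on that day, with Rpl35 at 792 and 1785 CPM (2.25, 1.999 to 2.55). On day 7 the order had shifted to Rpl23a (3.05, 2.20 to 4.31), Rps25 (2.67, 2.21 to 3.23) and Rps15 (2.53, 1.96 to 3.31). The lowest on day 7 were Rpl10 (1.01, 0.889 to 1.15), Rps19bp1 (1.02, 0.545 to 1.997) and Rpl7 (1.03, 0.898 to 1.18), whose intervals span 1.

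In oligodendrocyte-like cells (754, 2168, 810 and 1150 cells) the share was 5.44% in the sham library, 5.83% on day 1, 5.44% on day 3 and 4.27% on day 7. The ratios were 1.07 (1.07 to 1.08), 1.00 (0.995 to 1.00) and 0.784 (0.780 to 0.788), so these cells showed a small rise and a later fall. On day 1, 5 of 83 members were at least 1.5-fold higher and 0 lower, against 5.93% and 4.54% of all genes. On day 3, 1 was higher and 0 lower, against 2.3% and 0.861%. On day 7, 1 was higher and 10 lower, against 12.8% and 3.74% of all genes, and with libraries scaled to the median gene 0 and 24, against 7.49% and 7.28%. The day 7 median log2 ratio was -0.36 for members and 0.11 for all genes.

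Members were ranked by the log2 ratio with 5 CPM added, which holds back those at a few CPM such as Rps27rt. By this rank Rpl38 led day 1 in oligodendrocyte-like cells, with 960 CPM in the sham library, 1711 on day 1, 933 on day 3 and 724 on day 7. Rps27rt (5.33 to 13.2 CPM, ratio 2.48, 1.67 to 3.81) and Rpl22l1 (209 to 363 CPM, ratio 1.74, 1.63 to 1.86) followed. Rpl7, Rpl4 and Rps6 were lowest, with day 1 ratios of 0.718 (0.688 to 0.750), 0.726 (0.685 to 0.771) and 0.833 (0.787 to 0.882). Rpl4 lines the exit tunnel and Rps6 carries the phosphorylation sites of S6 kinase. On day 3 Rpl27 (1.66), Rpl36al (1.44) and Rpl17 (1.37) were highest, and Rpl12, the stalk base protein (0.796), Rplp1 (0.810) and Rps12 (0.811) lowest. On day 7 Rpl23a was at 1.57 times sham (1.40 to 1.75), while Rpsa was at 0.605 (0.585 to 0.625), Rpl7 at 0.620 (0.590 to 0.653) and Rpl10a, of the L1 stalk, at 0.623 (0.580 to 0.669).

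Both mural classes were highest on day 1 and lowest on day 7. Pericyte-like cells (213, 501, 538 and 468 cells) had shares of 4.34, 6.10, 4.24 and 3.61%, with ratios of 1.41 (1.38 to 1.43), 0.977 (0.962 to 0.992) and 0.832 (0.819 to 0.846). On day 3 their mean share per cell was not below sham, with 4.02% against 4.0002%. Of the pericyte-like cells, 80 in the sham library and 169, 112 and 121 in the other libraries sat at the edge of the gate. Their median depth was 2618 UMIs in the sham library and 1300 on day 1. Vascular smooth muscle-like cells (784, 769, 853 and 1636 cells) had 8.82, 10.1, 9.37 and 8.07%, with ratios of 1.15 (1.14 to 1.15), 1.06 (1.06 to 1.07) and 0.915 (0.912 to 0.919). The day 1 median log2 ratio of members was 0.46 in pericyte-like and 0.15 in vascular smooth muscle-like cells, beside 0.04 and -0.08 for all genes. With 5 CPM added Rpl38 ranked highest on day 1 in both, with plain ratios over sham of 2.39 (2.12 to 2.70) and 1.87 (1.81 to 1.94).

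**Figure D2:**
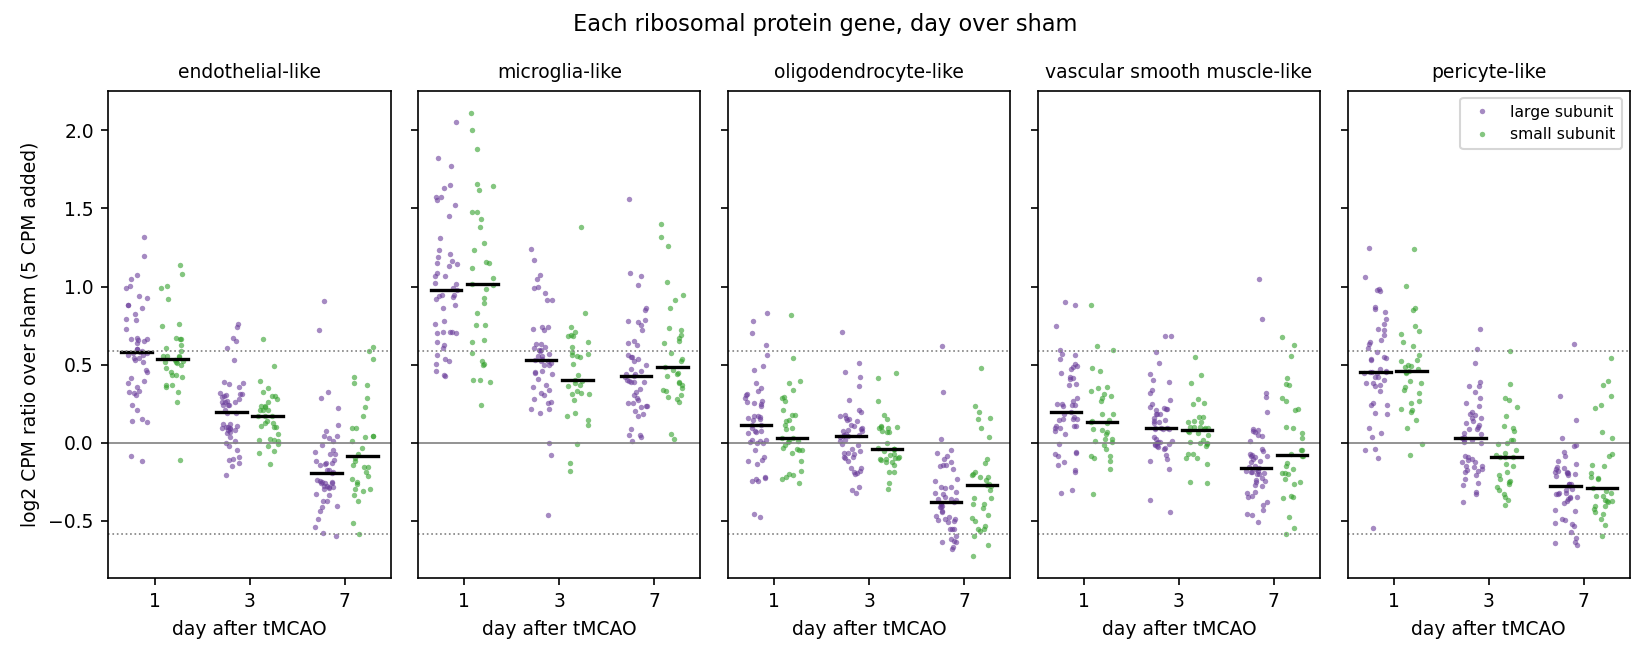
Log2 CPM ratio over sham (5 CPM added) of each member with at least 50 UMIs in both libraries together, by day, in the 5 classes with at least 50 cells in every library. Points are genes, black bars are medians of the large and small subunit, dotted lines mark 1.5-fold, and the whole cloud sits highest on day 1 in microglia-like cells (median 0.99 over both subunits).

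On day 1 the large subunit rose more than the small one in each of the 5 classes. Its summed share rose 1.58-fold (1.57 to 1.58) in endothelial-like cells, against 1.49-fold (1.48 to 1.49) for the small subunit. In microglia-like cells these were 2.05 (2.02 to 2.08) and 1.91 (1.88 to 1.94), and in oligodendrocyte-like cells 1.11 (1.10 to 1.12) and 1.02 (1.02 to 1.03). The median log2 ratio over genes did not follow the sums in microglia-like cells (0.98 for large and 1.01 for small subunit members) or pericyte-like cells (0.455 and 0.459). On day 7 the summed share of the large subunit had the lower ratio in each of the 5 classes, though in pericyte-like cells its median log2 ratio was -0.28 beside -0.29 for the small one. The summed ratios were 0.887 for the large and 0.943 for the small subunit in endothelial-like cells and 0.775 and 0.797 in oligodendrocyte-like cells. The ratio of large to small subunit UMIs in endothelial-like cells was thus 1.35 in the sham library, 1.43 on day 1, 1.37 on day 3 and 1.27 on day 7. In microglia-like cells it was 1.21, 1.29, 1.33 and 1.18, and in oligodendrocyte-like cells 1.295, 1.40, 1.35 and 1.26. Between classes of the sham library it was low in neutrophil-like (1.06), T or NK-like (1.11), B-like (1.11) and border macrophage-like cells (1.14). It was higher in oligodendrocyte progenitor-like (1.63) and choroid plexus-like cells (1.49).

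Some members departed from the median member in the same direction in all 5 classes. A distance of more than 0.25 in log2 ratio was used, and these genes were picked out after their values were seen. On day 1, 6 lay above (Rpl17, Rpl32, Rpl38, Rpl39, Rpl41 and Rps26) and 3 below (Rpl13a, Rpl4 and Rpl7). On day 3, 4 lay above (Rpl17, Rpl27, Rpl35 and Rps26) and 2 below (Rpl12 and Rplp1). On day 7, Rpl17, Rpl23a, Rps12, Rps25 and Rps26 were among those above, and none lay below. The 5 classes share each day's library and the sham library, so they are not independent views of a day.

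Rpl23a, which stands at the mouth of the exit tunnel, ranked highest on day 7 in each of the 5 classes with 5 CPM added. Its levels in the order sham, day 1, day 3, day 7 were 137, 198, 146 and 261 CPM in endothelial-like, 108, 219, 164 and 328 CPM in microglia-like, and 87.1, 103, 81.4 and 136 CPM in oligodendrocyte-like cells. In vascular smooth muscle-like cells they were 133, 199.6, 151 and 280.0 CPM, and in pericyte-like cells 84.8, 147, 105 and 135 CPM. The day 7 level was above the day 1 level except in pericyte-like cells. Rps12 was likewise higher on day 7 than on day 1 in endothelial-like cells (758 and 639 CPM), oligodendrocyte-like cells (270.1 and 197 CPM), and in microglia-like cells (1500.3 and 1399.8 CPM). Rpl23a and Rps12 are among the members with the most named pseudogenes, with 14 and 23. The part of read assignment in their levels was not tested.

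**Figure D3:**
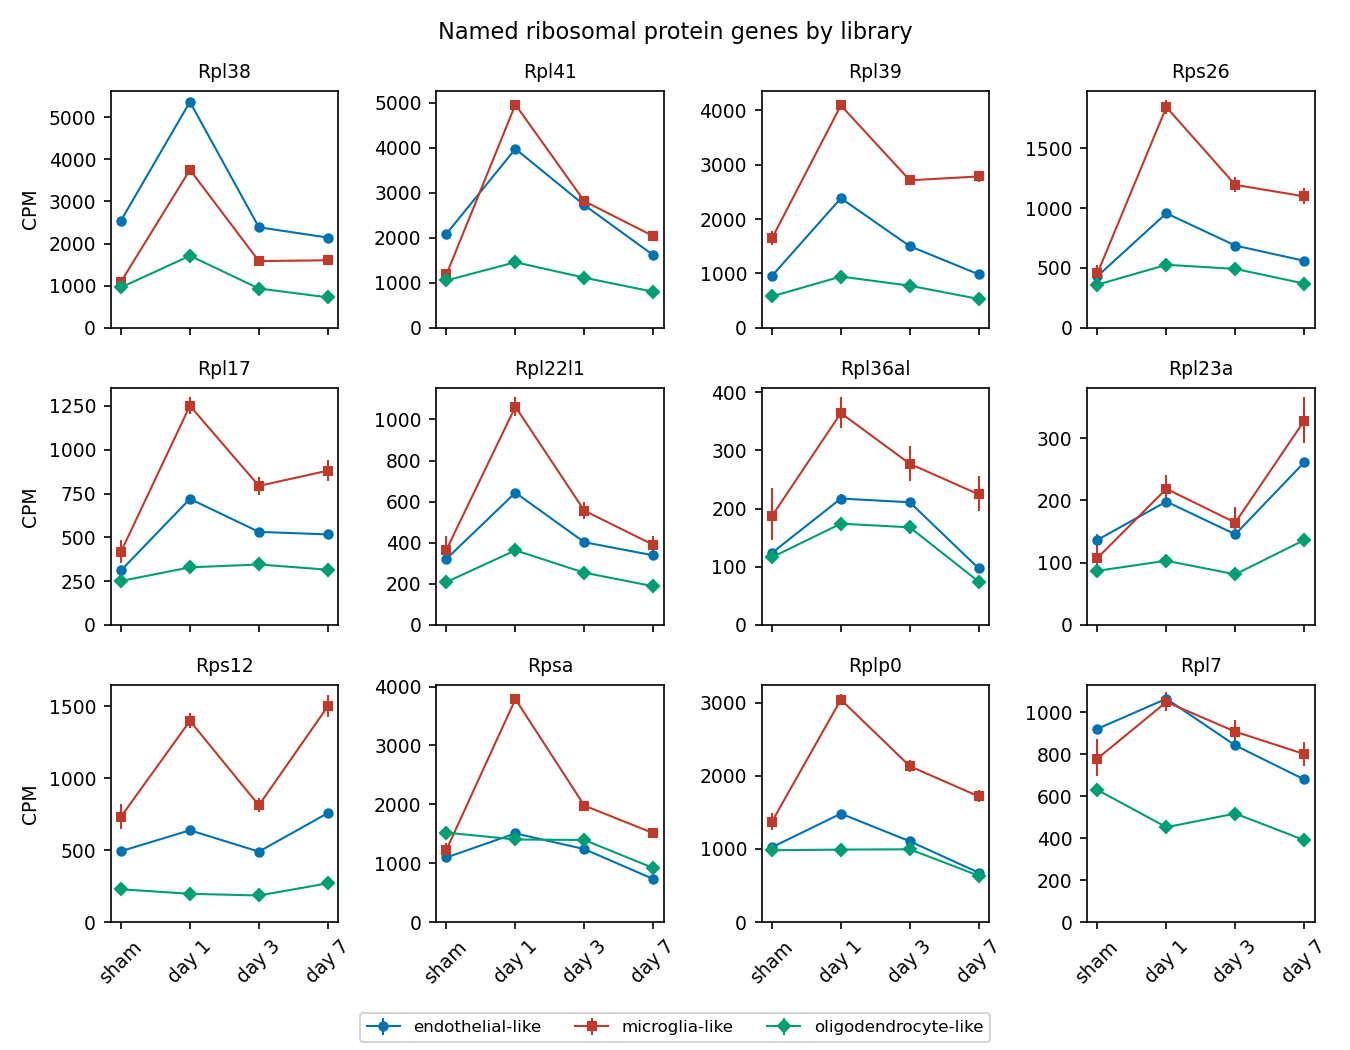
Level in CPM of 12 members in endothelial-like, microglia-like and oligodendrocyte-like cells of the 4 libraries, with exact Poisson 95% intervals. Rpl38, Rpl41 and Rpl39 peak on day 1 in all 3 classes shown, whereas Rpl23a is highest on day 7.

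The stalk proteins and Rpsa did not move as one. Rplp0, which anchors the stalk, had 1024, 1483, 1106 and 676 CPM in endothelial-like cells and 1374, 3043, 2132 and 1719 CPM in microglia-like cells. Its partner Rplp1 had 977, 1223, 846 and 795 CPM in the first and 2007, 2915, 1459 and 2257 CPM in the second, so on day 3 it was below sham in both. Rplp2 had 587, 879, 704 and 599 CPM in endothelial-like and 725, 1549.5, 907 and 1251 CPM in microglia-like cells. The day 3 ratio in microglia-like cells was thus 1.55 (1.41 to 1.71) for Rplp0, 0.727 (0.668 to 0.792) for Rplp1 and 1.2497 (1.10 to 1.43) for Rplp2. Rpsa, a 40S protein also known as the laminin receptor precursor, had 1230.5, 3788, 1979 and 1512 CPM in microglia-like cells, a day 1 ratio of 3.08 (2.81 to 3.38). In endothelial-like cells Rpsa was at 1.37 (1.35 to 1.40) on day 1 and 0.667 (0.653 to 0.681) on day 7, and in oligodendrocyte-like cells at 0.923 (0.899 to 0.948) on day 1.

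The paralogs were set against their standard partners as a percentage of the pair's UMIs. Rpl22l1, the paralog of Rpl22, was 35.7% of the pair over all kept cells of the sham library, 43.8% on day 1, 38.9% on day 3 and 37.2% on day 7. Within endothelial-like cells it was 29.5% (28.8 to 30.2), 36.0% (35.4 to 36.5), 32.9 and 33.6%. In oligodendrocyte-like cells it was 34.8% (33.2 to 36.4), 47.8% (46.7 to 48.9), 39.6 and 40.3%, and in microglia-like cells 34.8% (30.2 to 39.6), 44.4% (43.0 to 45.9), 35.7 and 27.7%. The pair thus shifted towards Rpl22l1 on day 1 in these 3 classes, and in microglia-like cells it was at its lowest on day 7. The shift was not general. From the sham library to day 1, vascular smooth muscle-like cells went from 46.9 to 52.6%, but pericyte-like cells from 56.1 to 55.5%. Choroid plexus-like cells had the highest value on day 1, 68.1% (66.3 to 69.9), against 53.5% (47.4 to 59.6) in the sham library. Rpl22l1 has a shorter annotated mRNA than Rpl22, 552 against 2051 bases, which bears on the length pattern given below.

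Rps27l, a p53-responsive paralog of Rps27, was 5.82% (4.24 to 7.76) of its pair in sham microglia-like cells and 14.4% (13.4 to 15.4) on day 1, then 7.52 and 6.08%. In endothelial-like cells it fell slightly, from 11.9% (11.5 to 12.2) to 11.1% (10.8 to 11.3) on day 1 and 9.98% (9.70 to 10.3) on day 7. T or NK-like cells had 2.07 to 2.45% in the 4 libraries and choroid plexus-like cells 22.0 to 32.3%. Rpl36al was 21.2% of the pair with Rpl36a in sham endothelial-like cells, 22.9% on day 1, 27.8% (27.0 to 28.6) on day 3 and 18.0% on day 7. Rps27rt was 0.801% (0.722 to 0.887) of the pair with Rps27 over all kept sham cells, 1.55% (1.47 to 1.64) on day 1, 0.921% on day 3 and 1.26% on day 7. Since Rps27rt and Rps27 share sequence, reads may have been split between them.

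Ribosomal protein mRNAs are short, with a median of 886 bases for the standard members against 3048 for all measured genes, so their ratios were set beside those of other genes of like length. In endothelial-like cells on day 1, the median log2 ratio of other genes was 0.34 for mRNAs under 700 bases and -0.09 for those of 4000 bases or more. Members under 700 bases had a median of 0.72, and those of 1000 to 2000 bases 0.52 beside 0.00 for other genes. In microglia-like cells on day 1, other genes went from 0.97 under 700 bases to -0.34 at 4000 or more, beside 1.17 for members under 700 bases and 0.91 for members of 1000 to 2000 bases (other genes 0.11). In oligodendrocyte-like cells the day 1 medians under 700 bases were 0.18 for 182 other genes and 0.28 for 26 members. On day 7 other genes showed the opposite slope in endothelial-like cells, from -0.17 under 700 bases to 0.25 at 4000 or more, and in oligodendrocyte-like cells, from -0.32 to 0.38. In the latter, day 7 members had medians of -0.21 under 700 bases and -0.36 at 700 to 1000 bases, close to the -0.32 and -0.30 of other genes, and -0.39 at 1000 to 2000 bases, where other genes had -0.21. Across the 77 standard members, Spearman's rho between length and day 1 log2 ratio was -0.33 in endothelial-like, -0.14 in microglia-like and -0.45 in oligodendrocyte-like cells, as a description over genes that share libraries. The part of mRNA length in the members' changes was not tested.

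**Figure D4:**
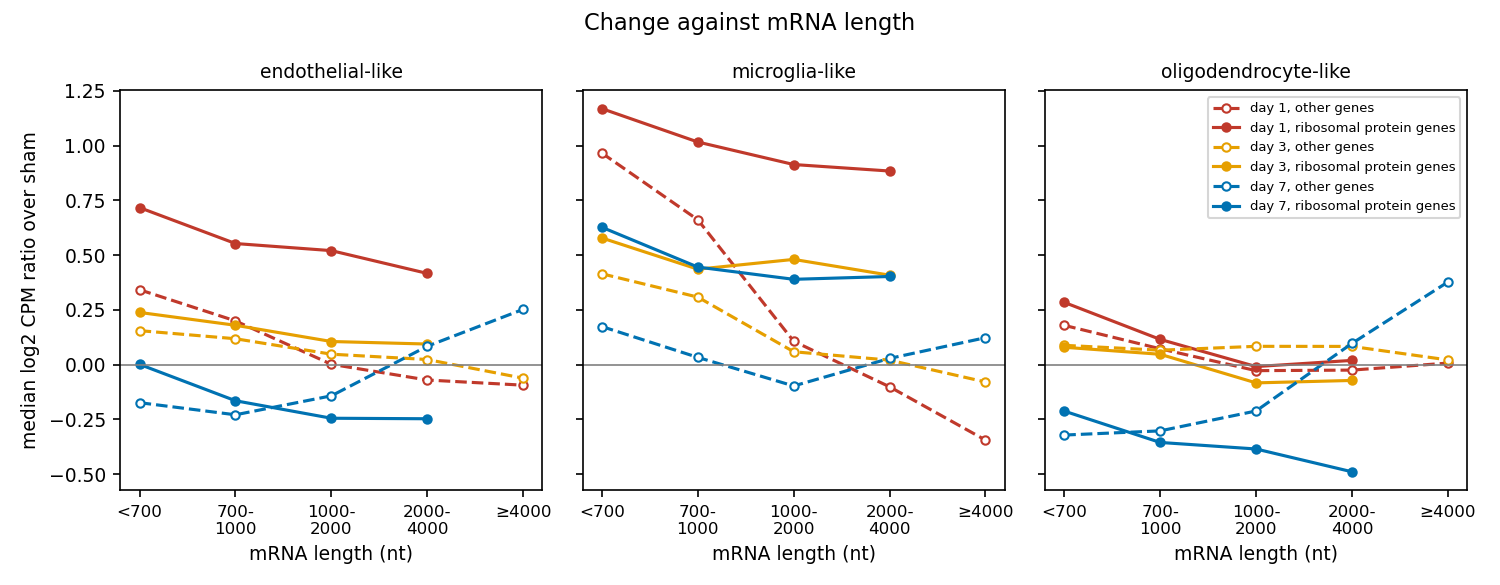
Median log2 CPM ratio over sham by mRNA length for members (solid, bins with at least 5 members) and other genes (dashed) in 3 classes. On day 1 mRNAs under 700 bases had the highest medians in both groups of genes, and in endothelial-like and microglia-like cells members lay above other genes of the same length.

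Depth, mitochondrial share and nuclear RNA moved with the libraries. The median UMIs of endothelial-like cells were 2897.5, 1864, 2220.0 and 2003 in the order sham, day 1, day 3, day 7, and those of microglia-like cells 2674, 3756, 2789 and 3502. In endothelial-like cells, Malat1, a nuclear RNA, was 2.76, 1.49, 1.57 and 2.93% of UMIs in this order, and Gm42418, a row that overlaps ribosomal RNA sequence, 1.37, 0.162, 0.2497 and 0.611%. In microglia-like cells Malat1 was 3.12, 0.801, 1.36 and 1.79%. Mitochondrial UMIs were 3.01, 2.85, 2.09 and 3.07% in endothelial-like cells, and hemoglobin UMIs 0.573, 0.0342, 0.350 and 0.151%. With mitochondrial UMIs left out of the total, the day 1 ratio was 1.54 in endothelial-like and 1.99 in microglia-like cells. The part of Malat1, Gm42418 and hemoglobin RNA in the member shares was not tested.

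Within bins of UMIs per cell, the day 1 share of endothelial-like cells was above sham in each of the 5 bins: 6.55 and 4.66% at 500 to 1000 UMIs, 9.48 and 4.43% at 1000 to 2000, 12.7 and 7.37% at 2000 to 4000, 14.7 and 9.63% at 4000 to 8000, and 20.4 and 9.75% at 8000 or more. On day 7 it was below sham at 500 to 1000 (4.396%) and at 4000 to 8000 (9.15%) but above it at 1000 to 2000 (5.13%) and 2000 to 4000 (7.82%), and fewer than 20 cells were in the bin of 8000 or more. Microglia-like cells of 1000 to 2000 UMIs gave 7.09% (34 cells), 18.2, 11.96 and 13.5% in the same order of libraries, and those of 4000 to 8000 UMIs 9.28, 17.7, 11.5 and 12.1%. Oligodendrocyte-like cells of 4000 to 8000 UMIs gave 5.43, 5.87, 5.55 and 4.3003%. The day 1 rise in endothelial-like and microglia-like cells thus had the same direction in the bins given, within which depth can still differ. In oligodendrocyte-like cells day 7 was below sham at 4000 to 8000 UMIs. It was also below at 1000 to 2000 (3.60 against 4.75%) and at 8000 or more (4.31 against 5.51%). At 2000 to 4000 UMIs day 7 was above sham, with 3.91% in 158 cells against 3.58% in 25 cells. The day 7 fall thus changed sign between bins in both endothelial-like and oligodendrocyte-like cells.

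**Figure D5:**
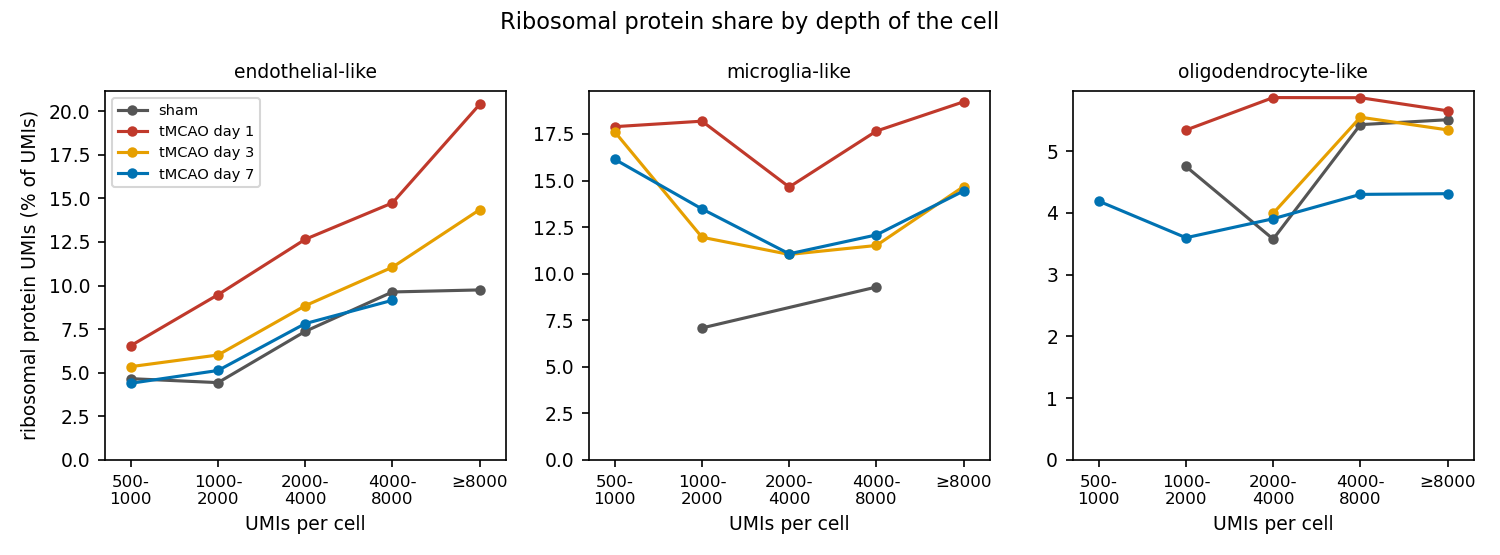
Ribosomal protein share of UMIs (%) against UMIs per cell in 3 classes, 1 line per library, for bins of at least 20 cells. In endothelial-like cells the share grew with depth from 1000 UMIs on, and day 1 lay above sham in each bin.

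Other genes of translation were taken from fixed lists. Fau, a ribosomal protein gene whose name falls outside the rule and which encodes Rps30 fused to a ubiquitin-like domain, had 1983, 3188, 2242 and 1810.4 CPM in endothelial-like cells. Of 13 translation factors, 0 were past 1.5-fold on day 1 in endothelial-like cells, 6 were higher and 0 lower in microglia-like cells, and 0 were higher and 2 lower in oligodendrocyte-like cells. Of all genes, 23% were higher and 24% lower in microglia-like cells, and 5.93% and 4.54% in oligodendrocyte-like cells. The summed ratios of the factors were 1.10, 1.249 and 0.743. Eef1a1, the elongation factor that brings aminoacyl-tRNA to the ribosome, had day 1 ratios of 1.10 in endothelial-like, 1.06 in microglia-like and 0.579 in oligodendrocyte-like cells, below the ratio of the members' share in each.

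Of 25 ribosome biogenesis genes, 1 was higher and 3 lower on day 1 in endothelial-like cells, and 4 of the 17 measured in microglia-like cells were higher and 2 lower. Of all genes, 4.95% were higher and 5.04% lower in the first and 23% and 24% in the second. Their summed ratios were 0.946 and 1.14, beside member ratios of 1.54 and 1.98. Ncl, the nucleolar protein nucleolin, had 266 CPM in sham endothelial-like cells and 198 on day 1. Of the mitochondrial ribosomal proteins, 34 of 65 measured were higher and 1 lower on day 1 in microglia-like cells (summed ratio 1.74), 3 of 77 were higher and 0 lower in endothelial-like cells (1.12), and 0 of 77 moved past 1.5-fold in oligodendrocyte-like cells (1.05). On day 7 in oligodendrocyte-like cells, 8 of 77 were lower and 0 higher, against 3.74% and 12.8% of all genes. The summed ratio of the mitochondrial ribosomal proteins was 0.752 and that of the translation factors 0.768, beside 0.784 for the members. Of 10 genes that control translation, 2 were higher and 0 lower on day 1 in endothelial-like cells, with a median log2 ratio of -0.16 and a summed ratio of 1.03. The 2 were Ddit4 and Eif4ebp1. Ddit4, an inhibitor of mTOR signalling, had 50.9, 89.0, 60.4 and 156 CPM in endothelial-like cells and 99.9, 125, 69.7 and 306 CPM in oligodendrocyte-like cells. Eif4ebp1, a repressor of cap-dependent translation, had 31.9, 64.6, 72.4 and 29.8 CPM in endothelial-like cells. Both were above sham on day 1 in endothelial-like cells, and on day 7 Ddit4 was 3.06-fold (2.84 to 3.31) above it.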

How the data were processed

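UMI count matrices of 4 libraries, as deposited by the authors, were used. The submitters' notes name Cell Ranger 3.0.1 and Seurat 4.1.2, while the matrix headers give Cell Ranger 4.0.0. They also name a human build, but 30934 of 31053 gene IDs matched mouse GENCODE vM21, and start sequences were read from RefSeq GRCm38. The members and gene lists were chosen with earlier results of these data known. As in the study's methods, a cell was kept with 200 to 3000 genes and a mitochondrial share of 10% or less, which left 44360 cells, fewer than the study states. Kept cells were then gated by 6 markers per class, where the study annotated clusters. The authors' cell types were not used, so differences from the study may come from rebuilt names. UMIs were summed per library and class. From these, percent of UMIs (exact binomial interval), CPM, and ratios (exact conditional interval) were computed. Genes with at least 50 UMIs in both libraries together were compared at 1.5-fold with 5 CPM added. No test was made with 1 library per group. Named genes were the non-standard members, the 10 most abundant, Rpsa and the stalk proteins, the 3 highest and 3 lowest log2 ratios (5 CPM added) per main class and day, and list genes. The numbers of libraries and cells set the precision, and intervals cover counting error only. Doublets were kept. Scrublet (scanpy 1.11.5) marked 617 cells on day 1 but 17, 3 and 2 in the sham, day 3 and day 7 libraries, where it did not work. The computation was tested on simulated counts. Python 3.11.15, numpy 2.4.6, pandas 2.3.3 and scipy 1.17.1 were used. Some items are not reported here.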

Additional observations from a re-analysis of the deposited data

Results flagged for a closer look

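In the 5 classes with at least 50 cells in every library, the member share moved in different directions under the same contrast. On day 3 it was above sham in microglia-like (ratio 1.39), endothelial-like (1.13) and vascular smooth muscle-like cells (1.06), and below it in pericyte-like cells (0.977), although their mean share per cell was 4.02% against 4.0002% in the sham library. On day 7 it was above sham in microglia-like cells (1.41) and below it in endothelial-like (0.911), vascular smooth muscle-like (0.915), pericyte-like (0.832) and oligodendrocyte-like cells (0.784). The intervals of these ratios exclude 1 but cover counting error in 1 library per group, and the difference between classes was not tested.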

How the results depend on the processing

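Each ratio below is a member share over sham in endothelial-like, microglia-like or oligodendrocyte-like cells. Over the 13 alternatives, no ratio in these 3 classes but that of day 3 in oligodendrocyte-like cells turned its direction. Within the bins of UMIs per cell given above, those of day 7 in endothelial-like and oligodendrocyte-like cells also changed sign. Other classes were given by the mean share per cell alone, which turned the ratio of neuron-like and choroid plexus-like cells on day 1, of pericyte-like, choroid plexus-like and neutrophil-like cells on day 3, and of astrocyte-like, ependymal-like and erythrocyte-like cells on day 7. Over 13 alternatives the ratios on days 1, 3 and 7 ranged from 1.49 to 1.67, 1.11 to 1.14 and 0.861 to 0.930 in endothelial-like cells, from 1.83 to 2.14, 1.302 to 1.46 and 1.31 to 1.53 in microglia-like cells, and from 1.06 to 1.10, 0.958 to 1.03 and 0.728 to 0.798 in oligodendrocyte-like cells. Day 3 in oligodendrocyte-like cells thus lay on either side of 1. Of 117 share values, 69 moved past the counting interval and 48 did not, and of 126 counts, 36 moved by over 1.5 times. The cause of these shifts was not tested. No paired analysis was possible because each group was 1 library, and for the same reason none could be left out.

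Values are in the order of the classes above and of the days. With up to 6000 genes per cell they were 1.67, 1.14 and 0.890, 2.01, 1.45 and 1.42, and 1.10 and 1.03 on days 1 and 3. The endothelial-like counts then went from 37 to 59 higher on day 1 and from 1 to 3 lower on day 7. Of all genes, 7.1% were higher on day 1 and 1.99% lower on day 7, in place of 4.95% and 1.84%. Under median-ratio scaling the ratios were 1.58, 1.12 and 0.861, 2.02, 1.36 and 1.36, and 0.958 and 0.728 on days 3 and 7. That scaling shifted all genes by a log2 of 0.11 on day 7 in oligodendrocyte-like cells, where 24 members were then lower in place of 10 and 0 higher (7.28% and 7.49% of all genes), and it gave 2 higher and 5 lower on day 7 in endothelial-like cells in place of 4 and 1 (3.54% and 3.19% of all genes). With clusters in place of the gate the ratios were 1.54, 1.12 and 0.904, 1.83, 1.302 and 1.31, and 1.10, 1.01 and 0.798. There 18 members were higher on day 3 in microglia-like cells in place of 29, against 13.4% of all genes. In endothelial-like cells 2 were lower on day 7, against 1.93% of all genes. With the mean share per cell the ratios were 1.49, 1.12 and 0.914, 1.90, 1.45 and 1.43, and 1.09 on day 1. With cells thinned to 1000 UMIs they were 1.59, 1.12 and 0.930, 2.14, 1.46 and 1.53, and 1.09 on day 1.

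A gate of 2 markers gave 1.53 on day 1 in endothelial-like cells, 1.95 and 1.45 on days 1 and 7 in microglia-like cells, and 1.09, 1.01 and 0.789 in oligodendrocyte-like cells. A gate of 4 markers gave 1.12 and 0.908 on days 3 and 7, 2.02 on day 1, and 1.06, 0.992 and 0.777. A mitochondrial limit of 5% gave 1.11 and 0.907 on days 3 and 7, then 2.08, 1.46 and 1.45, and 1.09, 1.01 and 0.772. With mitochondrial UMIs left out of the total, day 3 was 1.12 in endothelial-like cells, and oligodendrocyte-like cells had 1.06, 0.989 and 0.791. Without cells called doublets, day 1 was 1.54 in endothelial-like cells. Leaving out the 6.04 to 11.2% of cells with the highest doublet scores, chosen after seeing the data, gave 1.56, 1.13 and 0.914 in endothelial-like cells and 1.06 and 0.780 on days 1 and 7 in oligodendrocyte-like cells. Leaving out shared barcodes, also chosen after seeing the data, moved no ratio.

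With the fold limit lowered by 0.25 the counts of higher members were 73, 15 and 9 in endothelial-like, 60 and 60 on days 3 and 7 in microglia-like, and 15, 7 and 3 in oligodendrocyte-like cells, where 14.3, 11.3 and 23.2%, 28.9 and 27.1%, and 16.5, 13.4 and 31.9% of all genes were higher, and those of lower members 15 on day 7, 1 on day 3, and 2 and 45 on days 1 and 7, against 9.8%, 23.1%, and 15.5 and 16.1% of all genes. At 2-fold 8, 0 and 0, then 41, 5 and 8, and 0, 0 and 0 were higher, against 1.3, 1.37 and 0.472%, 11.9, 4.6 and 3.9%, and 1.72, 0.436 and 1.6% of all genes. At this limit 0 were lower on day 7 in endothelial-like and oligodendrocyte-like cells, against 0.431% and 0.312% of all genes. With 50 CPM added, 2 were higher and 0 lower on day 7 in endothelial-like cells, against 0.919% and 0.53% of all genes. In oligodendrocyte-like cells 3 were higher on day 1, against 0.986% of all genes. On day 7, 0 were higher and 4 lower there, against 1.52% and 0.785%. A limit of 200 UMIs changed no count by over 1.5 times. Depth limits single members in sham microglia-like and pericyte-like cells, with 35253 and 24036 member UMIs.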
